A study of Mus musculus with 2 samples.

Results

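The trophectoderm transcription factors described here are 9 genes, Cdx2, Elf5, Eomes, Gata3, Gata2, Tfap2c, Tfap2a, Klf5 and Klf6, chosen by name as known regulators of the outer layer of the blastocyst. They are 9 of the 52366 genes in a table of unique molecular identifier (UMI) counts from 24 single mouse embryos. The embryos were pseudoblastocysts, as embryos that had formed a cavity were named without a check for an inner cell mass (ICM). The study asked what single blastomeres of cleavage-stage embryos can still become once they are isolated. 6 embryos of each of 4 kinds were sequenced by CEL-Seq2, which tags the 3′ end of each captured transcript, and levels are compared between embryos, not ranked between genes.

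All embryos came from in vitro fertilization of oocytes of B6D2F1 females with spermatozoa of ICR males and were grown in human tubal fluid medium with bovine serum albumin. The 1C embryos were zygotes freed of the zona pellucida at 5 h post insemination (hpi). The 2CB, 4CB and 8CB embryos each grew from 1 blastomere, isolated at 24 hpi from 2-cell embryos, at 48 hpi from 4-cell embryos and at 48 hpi from 8-cell embryos, after the zona had been removed. All were collected at 96 hpi, and the labels name no transgene or deletion. None of the 4 groups kept an intact zona, so no comparison with an undisturbed embryo could be made. The labels name 2 library pools, one of the 6 1C and 6 8CB embryos and one of the 6 2CB and 6 4CB embryos. A difference between these 2 pairs of stages and a difference between the library pools cannot be told apart, while 8CB against 1C and 4CB against 2CB are comparisons within a pool. Where no label ties embryos to separate clutches, the p-values given here measure the spread between embryos.

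The trophectoderm is the first epithelium of the embryo and the source of the placental trophoblast. In outer cells of the morula, weak Hippo signalling leaves the co-activator YAP in the nucleus, where it works with TEAD4 to switch on Cdx2 and Gata3. Cdx2, Eomes, Elf5, Gata2, Gata3, Tfap2c and Klf5 then take part in a network that keeps trophoblast genes on and holds back the ICM program. Because RNA was taken from whole embryos, these counts alone cannot tell fewer trophectoderm cells from less RNA per trophectoderm cell. The paper counted stained cells in other embryos collected at the same time after insemination. Blastocysts from single blastomeres had fewer CDX2-positive trophectoderm cells than those from zygotes with an intact zona. The number fell with the stage of the parental embryo, while the proportion of these cells did not differ significantly. The part of cell number in the levels given here was not tested.

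Total UMIs ranged from 70941 to 1507471 per embryo, and 3 embryos, of the 2CB and 4CB groups, had over 1000000. Levels are given as CPM, the UMIs of a gene per 1000000 UMIs of that embryo. Differences are log2 fold changes from edgeR's quasi-likelihood F test on all 24 embryos, with 5940 genes tested and a gene called at a Benjamini-Hochberg adjusted p below 0.1. All 9 factors passed the filter on low counts, which asked for 30.2 CPM in 6 embryos. Cdx2, Elf5, Gata2 and Tfap2a reached that minimum in 3, 0, 0 and 0 of the 12 1C and 8CB embryos, and so passed through the 2CB and 4CB embryos, where they were high. Their calls between these groups are therefore given as a description. The epithelial keratins of a blastocyst, Krt8 and Krt18, were present in every 2CB and 4CB embryo, but only 6 UMIs of Krt8 were counted in the 6 1C embryos together and 9 in the 8CB embryos, and mean Krt18 was 37.9 ± 40.6 CPM in 1C and 42.1 ± 29.1 CPM in 8CB embryos, below the 1448 ± 699.6 of 2CB embryos and the 1217 ± 508 of 4CB embryos (SD, n = 6 per stage). Granulosa cell genes Fshr, Inha and Amh had 0 UMIs in every embryo.

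Of the 5 factors that reached the filter in 1C and 8CB embryos too, Gata3, Eomes, Klf5 and Klf6 were higher in 2CB and 4CB pseudoblastocysts and Tfap2c was lower. Cdx2, Elf5, Gata2 and Tfap2a were also called higher, after a filter that they passed through the embryos where they are high. In a fit without a filter on low counts, 8 of the 9 were called higher and 1 lower as well, beside 14.2% and 9.61% of the 23171 genes of that fit. Among all 5940 genes tested, 31.3% were called higher and 24% lower in that comparison. Under the same limit for these 4, all 9 passed the test for any difference among the 4 stages, in which 47.1% of all genes were called. Among the factors that were higher, the difference ran from near absence in 1C and 8CB for Elf5, Gata2 and Tfap2a to 1.26 on the log2 scale for Klf5. Within a library pool no factor was called. For 6 factors, Elf5, Gata3, Gata2, Eomes, Tfap2a and Klf6, the lowest of the 12 2CB and 4CB embryos was above the highest of the 12 others in CPM, which held for 210 of the 5940 genes tested (3.54%). Of these factors, Elf5, Gata2 and Tfap2a were tested only because they were high in 2CB and 4CB embryos. The measure was chosen after the values were seen, so this count is a description.

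**Figure D1:**
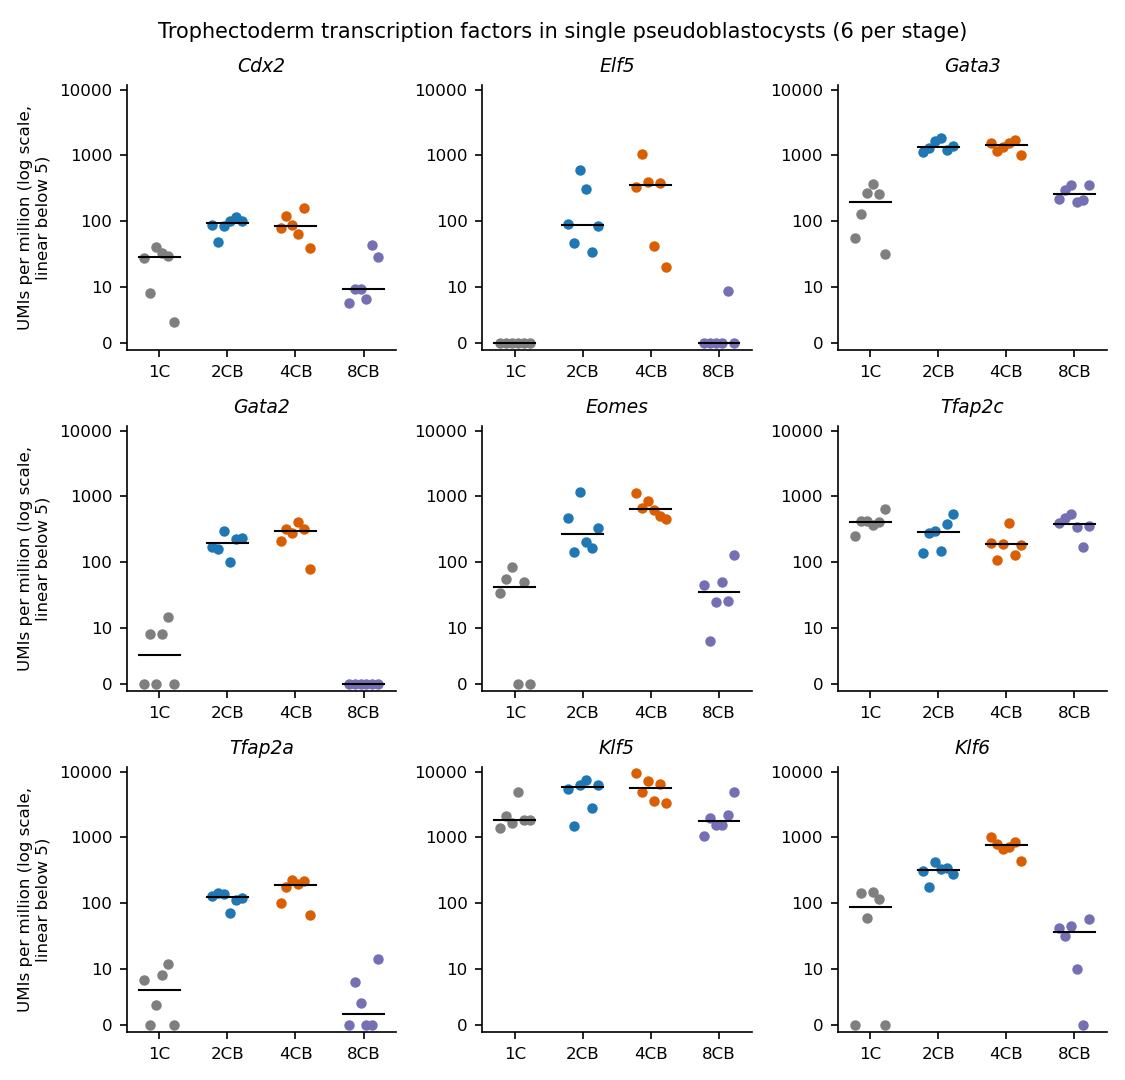
Each panel plots 1 factor in CPM (UMIs of the gene per 1000000 UMIs of the embryo) on a log axis that is linear below 5. Each point is 1 embryo, 6 for each of 1C, 2CB, 4CB and 8CB, and the bar is the stage median. Elf5 has 0 UMIs in all 6 1C embryos and Gata2 in all 6 8CB embryos, whereas Tfap2c has medians of 414, 289, 187 and 375 CPM in 1C, 2CB, 4CB and 8CB with overlapping ranges.

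Elf5, Gata2 and Tfap2a were at or near 0 UMIs in the 1C and 8CB embryos. The bases before one RefSeq start of each are shown here, with those of Gata3, which had 268 UMIs in 1C and 400 in 8CB, for comparison. They come from the RefSeq promoter table on GRCm38.p6, which holds 7 of the 9 factors (none for Tfap2c and Klf5), and any base of an exon annotated on the same strand was left off. The Tfap2a and Gata3 windows overlap exons of genes on the opposite strand. Capitals mark the letters of 7 motifs searched on both strands. They were TTTATG for CDX factors, AGATAA for GATA factors, AGGAAG for ETS factors, AGGTGT for T-box factors, GCCNNNGGC for AP-2 factors, GGGTGG for Krüppel-like (KLF) factors and GGAATG for TEAD factors. Each is written 5′ to 3′ on the strand of the gene.
Elf5, the second of its 2 starts, chr2:103423818-103424061, plus strand: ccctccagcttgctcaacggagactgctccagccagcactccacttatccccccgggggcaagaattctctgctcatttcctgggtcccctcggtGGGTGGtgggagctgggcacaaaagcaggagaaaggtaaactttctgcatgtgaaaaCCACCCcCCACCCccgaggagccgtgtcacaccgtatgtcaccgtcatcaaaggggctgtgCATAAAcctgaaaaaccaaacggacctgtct
Gata2, the first of its 2 starts, chr6:88193641-88193890, plus strand: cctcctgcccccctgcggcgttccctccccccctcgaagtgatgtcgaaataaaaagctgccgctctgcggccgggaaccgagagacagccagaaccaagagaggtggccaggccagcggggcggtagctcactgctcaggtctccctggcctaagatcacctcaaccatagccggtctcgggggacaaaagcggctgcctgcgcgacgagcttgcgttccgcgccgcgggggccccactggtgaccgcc
Tfap2a, the first of its 2 starts, chr13:40734921-40735170, minus strand: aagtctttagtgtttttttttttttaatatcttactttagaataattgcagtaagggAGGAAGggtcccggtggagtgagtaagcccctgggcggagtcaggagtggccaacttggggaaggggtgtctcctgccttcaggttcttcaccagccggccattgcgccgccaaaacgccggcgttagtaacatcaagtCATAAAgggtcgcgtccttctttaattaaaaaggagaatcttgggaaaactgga
Gata3, chr2:9878601-9878850, minus strand: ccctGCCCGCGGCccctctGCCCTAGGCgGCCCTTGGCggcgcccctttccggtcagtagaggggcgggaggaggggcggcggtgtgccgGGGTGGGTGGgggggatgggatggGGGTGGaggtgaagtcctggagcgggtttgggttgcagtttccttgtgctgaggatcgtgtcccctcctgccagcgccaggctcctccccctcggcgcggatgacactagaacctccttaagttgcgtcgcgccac

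The Elf5 window held 1 match to the CDX letters, 37 to 32 bases before the start, and 3 to the KLF letters. The Tfap2a window held 1 CDX match and 1 ETS match. The Gata2 window held none of the 7, and the Gata3 window held 3 AP-2 and 3 KLF matches, 2 of the latter sharing bases. These are common letters: over the 250 bases before 32851 RefSeq starts, 10.8% held the CDX letters, 9.99% GATA, 29.5% ETS, 11.8% T-box, 13.7% AP-2, 28.1% KLF and 12.6% TEAD. Of the other windows of the 7 factors in the table, Eomes and Klf6 held none of the letters and Cdx2 held 1 match each of ETS, AP-2 and KLF, of which the AP-2 match lay in annotated exon bases. The other start of Gata2 held 1 AP-2 and 1 TEAD match, that of Elf5 1 T-box and 1 TEAD match, and that of Tfap2a 1 ETS match, all of them in bases annotated as exon on the same strand. CEL-Seq2 reads lie at the 3′ end of transcripts, so the start used in these embryos was not measured.

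Cdx2 (chromosome 5, 147300805 to 147307270, minus strand, GRCm38), the caudal homeobox factor that maintains trophectoderm identity, had 2.89 to 40.7 CPM in 1C embryos (median 28.3) and 5.61 to 42.6 in 8CB embryos (median 9.23). It had 48.4 to 116 CPM in 2CB embryos (median 93.5) and 39.5 to 158 in 4CB embryos (median 83.7). All 24 embryos had at least 1 UMI of Cdx2, and 11 of the 12 2CB and 4CB embryos exceeded the highest of the others. The exception was a 4CB embryo at 39.5 CPM, from 6 UMIs. Cdx2 was higher in 2CB and 4CB by 2.32 ± 0.35 on the log2 scale (SE). Some counts behind these values were small, 35 UMIs over the 6 1C embryos and 17 over the 6 8CB embryos.

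Elf5 (chromosome 2, 103411688 to 103450989, plus strand), an ETS factor that forms a self-sustaining loop with Cdx2 and Eomes in trophoblast stem cells, was nearly absent from 1C and 8CB embryos. It had 0 UMIs in each of the 6 1C embryos and in 5 of the 6 8CB embryos, and 1 UMI in the remaining 8CB embryo. In 2CB embryos it ranged from 33.5 to 607 CPM (median 86.5) and in 4CB embryos from 19.8 to 1040.0 CPM (median 353). The groups of each pool did not overlap with those of the other. Summed over embryos, 599 UMIs in 2CB against 0 in 1C, with a floor of 3 UMIs for the 1C group, made Elf5 at least 67.3-fold higher. The ratio of 4CB to 8CB, with 555 UMIs against 1, was 355 (95% counting interval 63.4 to 14029), an interval for counting error only. This ratio leans on 4CB embryo 4, which had 48 of the 555 UMIs but 1130360 of the 2349146 total UMIs of 4CB embryos. The level of Elf5 varied more among 2CB and 4CB embryos than that of any other of the 9, with a fitted biological coefficient of variation of 0.864, higher than that of 97.7% of the genes tested. The lowest 4CB embryo rested on 3 UMIs and the highest had 163.

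Eomes (chromosome 9, 118478212 to 118486132, plus strand), the T-box factor needed for trophoblast to proliferate after implantation, was detected in 4 of 6 1C embryos and in all 8CB embryos. The 1C embryos had 0 to 84.2 CPM (median 41.9) and the 8CB embryos 6.23 to 127 (median 35.2). The 2CB embryos had 144 to 1186 CPM (median 267) and the 4CB embryos 455 to 1145 (median 636). The lowest 2CB embryo, at 144 CPM, was close to the highest 8CB embryo, at 127 CPM from 9 UMIs. Eomes was higher in 2CB and 4CB by 3.76 ± 0.44 (adjusted p = 5.80e-08). Of the 6 2CB embryos, 4 lay below every 4CB embryo, and the coefficient of variation of 0.645 exceeded that of 90.9% of genes. The gene Gm33460 on the opposite strand shares 118 exon bases with Eomes and had 13 UMIs in all, none of them in 1C or 8CB. Whether counting used the strand is not given in the sources used here.

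The GATA zinc finger factors Gata3 and Gata2 bind the same letters and act in part in place of each other in trophoblast. Gata3 (chromosome 2, 9857078 to 9890034, minus strand), which TEAD4 induces in parallel to Cdx2, had 31.7 to 364 CPM in 1C embryos (median 194) and 197 to 358 in 8CB embryos (median 256). In 2CB embryos it had 1145 to 1851 CPM (median 1357) and in 4CB embryos 1015 to 1725 (median 1443). The gap between the groups, from 364 to 1015 CPM, was wide next to the spread within 2CB and 4CB, where the highest embryo had 1.62 and 1.70 times the lowest. Gata3 was higher by 2.65 ± 0.25 (adjusted p = 1.51e-09).

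Gata2 (chromosome 6, 88193891 to 88207032, plus strand), a regulator of placental hormone genes in trophoblast giant cells, had 0 UMIs in all 6 8CB embryos and 7 UMIs in 3 of the 6 1C embryos, which had up to 14.6 CPM. It had 102 to 299.8 CPM in 2CB embryos (median 199) and 79.1 to 412 in 4CB embryos (median 297), with no overlap. Over all 12 embryos a side, 1567 UMIs against 7 gave a ratio of 99.3 (95% counting interval 48.1 to 247). Of the 7 UMIs, 5 were in 1C embryo 5, so the ratio rests largely on 1 embryo, and the interval covers counting error only. Against the floor of 3 UMIs for the 8CB group, Gata2 was at least 163-fold higher in 4CB.

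The AP-2 factors Tfap2c and Tfap2a went opposite ways. Tfap2c (chromosome 2, 172549593 to 172558622, plus strand), which is active from the cleavage stages and acts on Cdx2 and on tight junction genes, had 247 to 638 CPM in 1C embryos (median 414) and 171 to 544 in 8CB embryos (median 375). It had 139.7 to 535 CPM in 2CB embryos (median 289) and 108 to 394 in 4CB embryos (median 187). These ranges overlapped in every pair of stages. Tfap2c fell by 0.74 ± 0.23 in 2CB and 4CB (adjusted p = 0.0104). It was lower in 4CB than in 8CB, with a difference of -0.96 ± 0.33 (adjusted p = 0.0277), whereas 2CB against 1C gave -0.51 ± 0.33 (adjusted p = 0.237). When 2CB embryo 6, the highest 2CB embryo, was left out, that value became -0.76 (adjusted p = 0.0802).

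Tfap2a (chromosome 13, 40715675 to 40733823, minus strand), a paralog expressed in trophoblast and surface ectoderm, had 0 to 11.7 CPM in 1C embryos (median 4.79) and 0 to 14.1 in 8CB embryos (median 1.52), from 7 and 4 UMIs. It had 71.2 to 144 CPM in 2CB embryos (median 125) and 65.9 to 227 in 4CB embryos (median 187). No 2CB or 4CB embryo overlapped with the others, and the fitted log2 difference was 5.13 ± 0.40. The antisense gene Gm26688 shares 111 exon bases with Tfap2a. Gm26688 had 70 UMIs in 2CB, 59 in 4CB and 0 in 1C and 8CB embryos. It spans 40727808 to 40735162, away from the 3′ end of Tfap2a at 40715675. Whether any reads were divided between the pair was not tested.

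The Krüppel-like factors Klf5 and Klf6 were both higher in 2CB and 4CB embryos. Klf5 (chromosome 14, 99298691 to 99313405, plus strand), which is needed for both the trophectoderm and the ICM of the blastocyst, had 1379 to 4903 CPM in 1C embryos (median 1859.7) and 1039.95 to 4919.6 in 8CB embryos (median 1754). It had 1483 to 7406 CPM in 2CB embryos (median 5848) and 3354 to 9474 in 4CB embryos (median 5646). Of the 12 2CB and 4CB embryos, 7 exceeded the highest 1C or 8CB embryo, and the rest overlapped. Klf5 was higher by 1.26 ± 0.27 (adjusted p = 0.000283). In 2 embryos its count, 4785 and 4101, exceeded the 4096 sequences that a UMI of 6 bases can have, so that the values are not counts of distinct UMIs.

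Klf6 (chromosome 13, 5861482 to 5870394, plus strand), which is needed for the placenta and the yolk sac vessels, had 0 to 146 CPM in 1C embryos (median 86.7) and 0 to 56.4 in 8CB embryos (median 36.6). It had 178 to 422 CPM in 2CB embryos (median 322) and 435 to 1004 in 4CB embryos (median 765). The 2CB and 4CB embryos all lay above the others, and the difference was 3.33 ± 0.40 (adjusted p = 7.95e-08).

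The comparison was also made for 1 stage against 1 stage, as 2CB against 1C and as 4CB against 8CB, which share no embryos. Both set the same 2 library pools against each other in 1 fit, so a difference between the pools would enter both. The same 8 factors, the 4 that passed the filter through 2CB and 4CB embryos among them, were higher in 2CB than in 1C, where 24% of genes were called higher and 17.5% lower, and in 4CB than in 8CB, where 23.2% were called higher and 17.0% lower. The difference of Cdx2 was 1.91 ± 0.46 in the first and 2.73 ± 0.52 in the second, and that of Gata3 was 2.99 ± 0.36 and 2.32 ± 0.35. Eomes gave 3.40 ± 0.61 and 4.12 ± 0.64, Tfap2a 4.54 ± 0.54 and 5.72 ± 0.59, and Klf5 1.13 ± 0.38 and 1.40 ± 0.38. The values of Klf6 lay furthest apart among the factors with UMIs in all 4 stages, 2.10 ± 0.53 and 4.55 ± 0.60. For no factor did the 2 differences themselves differ past the threshold, as for 0% of all genes (0 of 5940 by edgeR, with 532 at an unadjusted p below 0.05, and 34 by DESeq2). The difference of differences of Klf6 was -2.45 ± 0.78 (adjusted p = 0.339), and without a filter on low counts, where 23171 genes were tested, it was -2.26 (adjusted p = 0.00864).

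**Figure D2:**
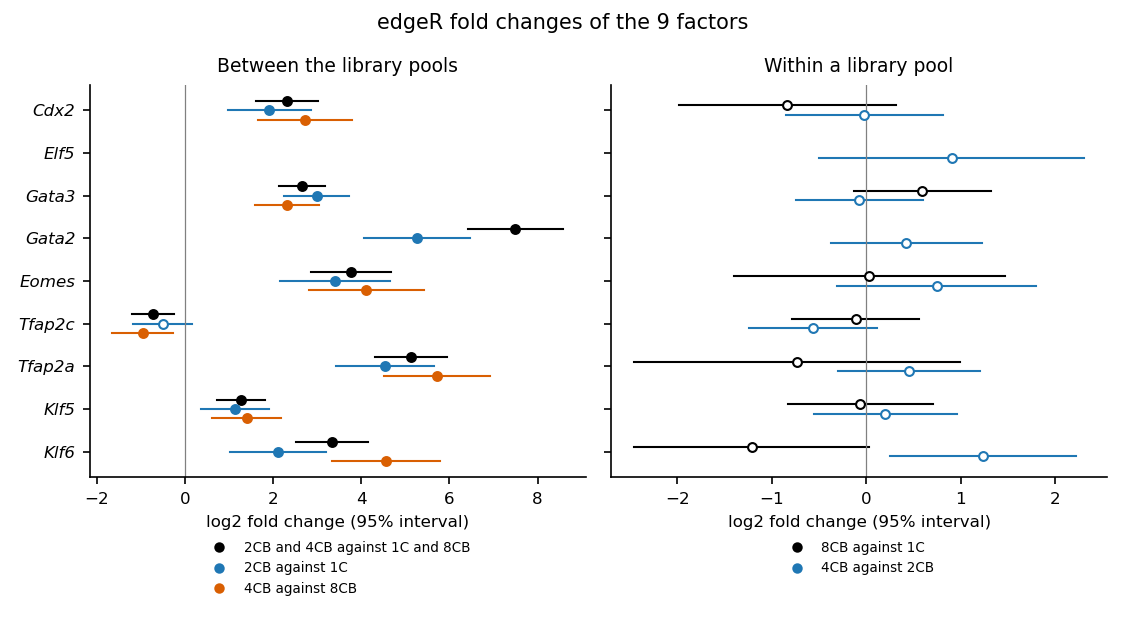
Points give edgeR's log2 fold change of each factor with its 95% interval, on the left for the 3 comparisons between the library pools and on the right for the 2 within a pool. Filled points are called at an adjusted p below 0.1; comparisons in which a stage had 0 or 1 UMI (Elf5 but for 4CB against 2CB, and Gata2 where 8CB stands alone) are not drawn. On the left all points but those of Tfap2c lie above 0, and on the right all are open.

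Within the pool of 1C and 8CB embryos, 0 of the 9 factors were called between the stages, as for 0% of all genes by edgeR (550 at an unadjusted p below 0.05, and 43 by DESeq2). The lowest adjusted p was 0.338, for Gata2, with 7 UMIs in 1C and 0 in 8CB. Klf6 was lower in 8CB by -1.21 on the log2 scale with a 95% interval of -2.46 to 0.03, and Cdx2 by -0.84 (-1.99 to 0.32). The interval of Gata3, 0.59 (-0.13 to 1.32), also included 0. Eomes gave 0.03 (-1.41 to 1.47), Tfap2c -0.11 (-0.79 to 0.56), Tfap2a -0.73 (-2.46 to 1.00) and Klf5 -0.07 (-0.83 to 0.70). With 6 embryos a side these intervals span differences of several fold for Eomes and Tfap2a, so no statement that the stages are alike can be made.

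Within the pool of 2CB and 4CB embryos, 0 of the 9 factors were called, against 0.0337% of all genes (2 of 5940). Elf5 was 0.91 higher in 4CB (95% interval -0.50 to 2.31), Eomes 0.74 (-0.31 to 1.80), Tfap2a 0.45 (-0.30 to 1.20) and Gata2 0.42 (-0.38 to 1.22). Cdx2 gave -0.02 (-0.85 to 0.81), Gata3 -0.08 (-0.75 to 0.60), Klf5 0.20 (-0.56 to 0.96) and Tfap2c -0.56 (-1.24 to 0.11). All of these intervals included 0. With each of the 24 embryos left out in turn, the difference of Elf5 ran from 0.25 to 1.66, Eomes from 0.54 to 1.38, Gata2 from 0.26 to 0.61 and Tfap2c from -0.88 to -0.31.

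Klf6 differed from the others in its ranges. All 6 4CB embryos, from 435 CPM, lay above all 6 2CB embryos, which reached 422 CPM, an order found for 9 of the 5940 genes tested (0.152%). Its log2 difference of 1.24 had a 95% interval of 0.25 to 2.22, but the adjusted p over all genes was 0.9999. Between alternative fits the adjusted p of Klf6 ranged from 0.160, with only the 12 embryos compared, to 0.771 with DESeq2 and 1 with DESeq2's size factors in edgeR. In the other pool Klf6 lay the other way round, higher in 1C than in 8CB in the median.

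Pairs of factors from 1 family were then compared within each embryo, as the share that 1 factor took of the UMIs of both, a measure chosen after the values were seen. A share is not scaled by the total UMIs of the embryo, but it may still vary with depth. The share of Klf6 was 10.7% and 11.01% in 2CB embryos 2 and 5, which had 1507471 and 1045282 UMIs. It was at most 6.32% in the other 2CB embryos. Among 4CB embryos it was highest, at 16.7%, in embryo 4, which had 1130360 UMIs. The part of depth in the shares was not tested. Gata2 took 0 to 5.88% of the UMIs of Gata2 and Gata3 in 1C embryos (mean 2.23%), 0% in 8CB embryos (0 of 400 UMIs), 5.23 to 15.7% in 2CB embryos (mean 12.4%) and 7.23 to 21.5% in 4CB embryos (mean 15.7%). Tfap2a took up to 2.76% of the UMIs of Tfap2a and Tfap2c in 1C embryos and up to 3.85% in 8CB embryos, but 18.3 to 48.1% in 2CB embryos and 26.3 to 63.0% in 4CB embryos. Klf6 took up to 6.29% of the UMIs of Klf6 and Klf5 in 1C embryos, up to 3.89% in 8CB embryos, 4.21 to 11.01% in 2CB embryos and 8.33 to 16.7% in 4CB embryos.

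In 2CB and 4CB embryos the mean share of Gata2 was 14.02% against 1.11% and that of Tfap2a 38.4% against 1.17%, which restates their near absence from the others and was left out of the tests. That of Klf6 was 9.50% against 2.38% (two-sided permutation test, 12 embryos against 12, Benjamini-Hochberg adjusted p = 0.00056 over the 7 other comparisons of shares). Between 4CB and 2CB, the share of Klf6 was 12.001% against 6.999% (two-sided exact permutation test, p = 0.0216, adjusted p = 0.0758), which did not pass 0.05 after adjustment. The share of Tfap2a was 45.6% against 31.1% (exact permutation test, adjusted p = 0.202), and that of Gata2 15.7% against 12.4% (exact permutation test, adjusted p = 0.328). Between 8CB and 1C no share passed 0.05 (exact permutation tests, lowest adjusted p = 0.318).

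**Figure D3:**
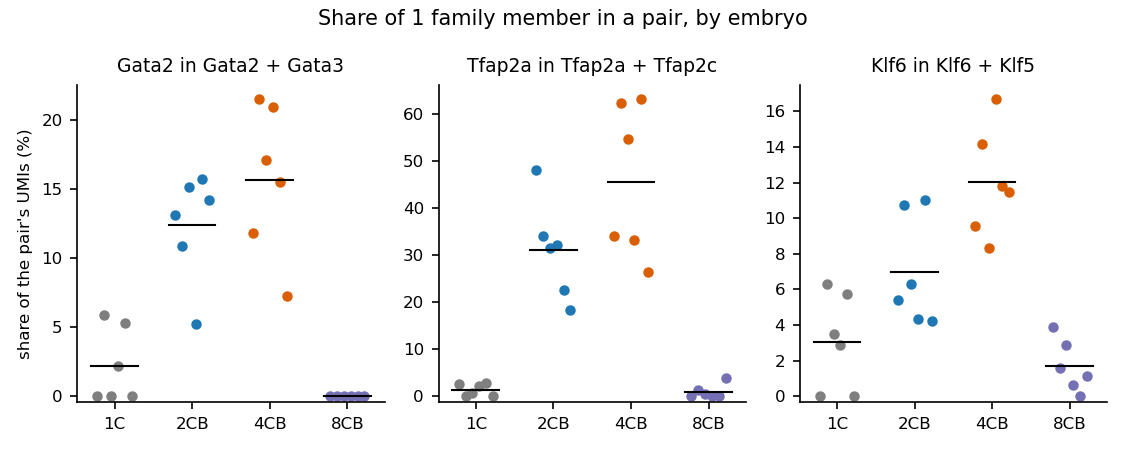
Each panel plots, for 1 pair of factors of a family, the percentage of the pair's UMIs that came from the first of them, by stage. Points are single embryos (6 per stage) and bars are stage means. Tfap2a takes 18.3 to 63.0% of its pair in 2CB and 4CB embryos and at most 3.85% in the others.

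Among embryos of 1 pool, no relation between 2 factors passed correction. Over the 12 2CB and 4CB embryos and the 12 1C and 8CB embryos, 42 pairs of factors were examined after the stage means were removed, those of all 9 factors in the former and those of Cdx2, Gata3, Tfap2c and Klf5 in the latter. The closest pair was Gata2 with Tfap2a in 2CB and 4CB embryos (Pearson's r = 0.84, permutation p = 0.00538, adjusted p = 0.147; Spearman's rho = 0.58, permutation p = 0.0661, adjusted p = 0.347), and r was 0.40 without the 2 embryos farthest from the median. The relation of Cdx2 with Tfap2c was negative in 1C and 8CB embryos (r = -0.74, permutation p = 0.00803, adjusted p = 0.147; rho = -0.66, permutation p = 0.0306, adjusted p = 0.347), with r = -0.46 without the 2 farthest embryos. Of 13 relations with the total UMIs, that of Klf5 in 1C and 8CB embryos was the closest (r = -0.71, permutation p = 0.00847, adjusted p = 0.110; rho = -0.75, permutation p = 0.0100, adjusted p = 0.108), with r = -0.53 without the 2 farthest embryos. The 2 1C and 8CB embryos highest in Klf5, at 4903 and 4919.6 CPM, were those with the fewest UMIs of their stage, 123594 and 70941.

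The genes that varied most like each factor among embryos were found from log2 CPM centred on the stage means, over 24 embryos and 5816 genes. These are the highest of 5816 coefficients in embryos that share library and depth effects, and are given as a description. Rnpep (r = 0.86), the tight junction gene Cldn7 (0.85) and Klf6 (0.81) were closest to Gata3, and Rab17 (0.88), Efnb2 (0.85) and Immt (0.85) were closest to Klf6. Pdap1 (0.84) was closest to Klf5, Obp2a (0.81) to Elf5, Reep5 (0.79) to Tfap2a and Mcmbp (0.79) to Cdx2. For Eomes and Tfap2c the closest genes were Cacnb3 (0.71) and Dpf2 (0.70).

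Of 24 upstream genes of the TEAD, YAP, Hippo and Notch pathways, 14 were tested between 2CB and 4CB and 1C and 8CB embryos, of which 3 were higher and 4 lower (31.3% and 24% over all genes tested), with a median log2 fold change of -0.28 beside 0.12 over all genes. Without a filter on low counts, 5 of the 24 were higher and 3 lower. Tead4, which is needed for the trophectoderm program to start, had a mean of 143 ± 30.4 CPM (SD, n = 6 per stage) in 1C, with 153 ± 40.3 for 2CB, 135 ± 37.4 for 4CB and 146 ± 38.1 for 8CB embryos, and gave -0.01 ± 0.19 (adjusted p = 0.968). Yap1 gave -0.24 ± 0.31 (adjusted p = 0.540). Tead2 was higher by 2.12 ± 0.33 (adjusted p = 4.64e-06) and Amotl2, which holds YAP out of the nucleus, by 1.20 ± 0.30 (adjusted p = 0.00147), while Taok1 was lower, at -0.97 ± 0.20 (adjusted p = 0.000270).

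Of 32 other trophoblast transcription factors, 16 were tested, with 4 higher and 7 lower (31.3% and 24% over all genes, median 0.07), and 9 higher and 6 lower of 30 without a filter on low counts (14.2% and 9.61% over all genes). Id2, an inhibitor of helix-loop-helix factors that marks the early trophectoderm, had 5 UMIs in 1C and 10 in 8CB embryos against 2428 in 2CB and 1827 in 4CB, and was higher by 7.03 ± 0.36 (adjusted p = 1.04e-14). Hand1, which drives giant cell formation, was lower, with means of 113 ± 64.4 CPM for 1C and 115 ± 72.0 for 8CB but 6.27 ± 9.93 for 2CB and 1.33 ± 3.25 for 4CB embryos (log2 fold change -4.64 ± 0.62, adjusted p = 4.46e-07). Sox15 (-3.44 ± 0.36, adjusted p = 7.99e-09) and Esrrb (-2.02 ± 0.31, adjusted p = 4.87e-06) were lower too, and Tbx3 was lower at -0.49 ± 0.16 (adjusted p = 0.0108). Msx2 was higher by 3.15 ± 0.59 (adjusted p = 6.09e-05). Tfap2b and Ets2 had too few UMIs to be tested. The limit set by the filter holds as well for Id2 and other listed genes that were near 0 UMIs in 1 pair of stages.

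Of 15 other Krüppel-like factors, 7 were tested, with 2 higher and 4 lower beside 31.3% and 24% of all genes (without a filter on low counts, 5 higher and 3 lower of 15), among them Klf3 at 2.30 ± 0.51 (adjusted p = 0.000422) and Klf2 at -1.34 ± 0.32 (adjusted p = 0.00107). Klf4, a pluripotency factor, gave -0.52 ± 0.24 (adjusted p = 0.0767). Of the 4 other GATA factors, the 2 tested were lower, beside 24% of all genes. They were Gata1 at -3.04 ± 0.53 (adjusted p = 2.36e-05) and Gata6, the primitive endoderm regulator, at -0.67 ± 0.21 (adjusted p = 0.00991). Without a filter on low counts, 1 was higher and 2 lower of the 4 (14.2% and 9.61% over all genes).

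Of 40 genes that carry out trophectoderm functions, such as keratins, junction proteins and transporters, 31 were tested, and 25 were higher and 2 lower in 2CB and 4CB embryos (31.3% and 24% over all genes, median 1.98). Without a filter on low counts, 30 were higher and 2 lower of 39 (14.2% and 9.61% over all genes). Krt18 was higher by 5.03 ± 0.40 (adjusted p = 3.80e-11). Krt8 was higher by 2.64 ± 0.43, but it passed the filter through 2CB and 4CB embryos, so this is a description. The protease gene Tmprss2, under the same limit, had 2271 UMIs in 2CB and 1398 in 4CB against 1 in 1C and 0 in 8CB embryos. The water channel gene Aqp9 was lower, at -0.73 ± 0.28 (adjusted p = 0.0314), and Aqp3 gave -0.49 ± 0.34 (adjusted p = 0.237). The summed level of this list was 3105 to 7988 CPM for 1C and 5554 to 8109 for 8CB embryos, below the 13234 to 15694 of 2CB and the 11076 to 15359 of 4CB embryos.

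Markers of the other lineages of the blastocyst moved as well. Of 20 primitive endoderm markers, 10 were tested, with 7 higher and 1 lower (31.3% and 24% over all genes, median 1.68). Without a filter on low counts, 15 were higher and 1 lower of 20 (14.2% and 9.61% over all genes). The summed level of these markers was 545 to 1119.9 CPM (median 797) for 1C and 635 to 1071 (median 824) for 8CB embryos. It was 1169 to 3696 CPM (median 1359) for 2CB and 701 to 2922 (median 1385) for 4CB embryos, the latter overlapping with 1C and 8CB. Lama1, a basement membrane chain, had 749 UMIs in 2CB and 235 in 4CB against 0 in 1C and 1 in 8CB embryos. Sox17, an endoderm factor, had 549 and 228 against 6 and 0. Both passed the filter through 2CB and 4CB embryos, so their calls are a description. Of 18 epiblast and ICM markers, 11 were tested, with 4 higher and 6 lower (31.3% and 24% over all genes, median -0.46; without a filter on low counts, 7 higher and 6 lower of 18), and their summed levels overlapped, from 2697 to 5310 CPM over 2CB and 4CB and from 2847 to 6430 over 1C and 8CB. Bmp4, which also passed the filter through 2CB and 4CB embryos, was higher by 5.51 ± 0.60. Sox2 was higher (1.96 ± 0.52, adjusted p = 0.00244), and Nanog was lower (-1.49 ± 0.38, adjusted p = 0.00170). Pou5f1 had too few UMIs to be tested. Of 15 oocyte genes 1 was tested, Ooep, which was higher by 2.04 ± 0.39 (adjusted p = 8.42e-05). Without a filter on low counts 2 of the 15 were higher and 3 lower (median 0.05), and the means of Zp3, an egg coat gene, were 34.5 CPM for 1C and 22.9 for 8CB but 5.88 for 2CB and 2.99 for 4CB embryos. Of 10 cumulus and granulosa genes 1 was tested, Star, which was higher by 1.24 ± 0.40 (adjusted p = 0.0105). The part of these other lineages in the levels of the 9 factors was not tested.

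**Figure D4:**
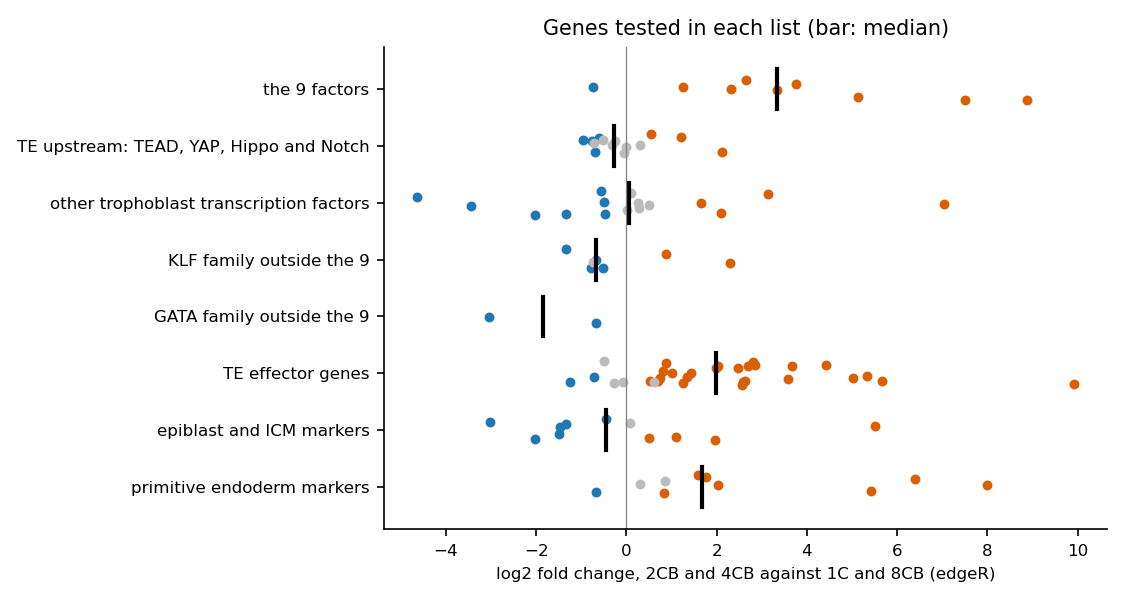
Each point is 1 tested gene of a list, placed by edgeR's log2 fold change for 2CB/4CB against 1C/8CB embryos. Orange points are called higher, blue points lower and grey points neither, at an adjusted p below 0.1, and black bars are list medians. The 9 factors and the 31 tested trophectoderm effector genes lie mostly above 0, while the upstream genes and the other transcription factors lie on both sides.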

How the data were processed

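The authors sequenced single pseudoblastocysts by CEL-Seq2 with an Illumina sequencer, aligned reads to GRCm38 with HISAT2 2.2.6 and made the deposited UMI counts per gene with HTSeq 0.6.1, then used DESeq2 1.10.1. Whether counting used the strand is not given in the sources used here. Stages were read from the column names. The table's 24 columns of other samples were not used, and a symbol was found for 51633 of 52366 genes.

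Genes were kept by edgeR's filterByExpr and fitted with edgeR 4.0.16 (TMM scaling, quasi-likelihood F test, 4 stages in 1 model of 24 embryos) in R 4.3.3, and were called at an adjusted p below 0.1. The procedure was tested on simulated data. Alternatives were DESeq2 1.42.0, its size factors, other filters, counts thinned to equal depth, a replicate block, fits of only the embryos compared and each embryo left out. The counting intervals (95%) and floors (3 UMIs over a group) cover counting error only. Total UMIs of 70941 to 1507471 per embryo make 1 UMI worth most in the shallowest. Permutation tests used SciPy 1.17.1, and promoters came from RefSeq.

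The 9 factors and the lists were chosen with earlier results of these data known. All 9 were named by rule. From each other list, names came from the 3 tested genes with the largest and the 3 with the smallest log2 fold change for 2CB/4CB against 1C/8CB, plus a fixed set of markers. Genes most alike were the 3 with the highest correlation, and genes overlapping a factor were named too. Not every gene that the rule names is reported here. The shares of pairs, the ranges that do not overlap, the relations between factors and the promoter letters were chosen after the values were seen.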

Additional observations from a re-analysis of the deposited data

Results flagged for a closer look

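Among 34 groups of 6 embryos, 7 had a highest embryo that stood apart from the other 5 by Dixon's test. Chance gives about 1 such group in 20. Elf5 had 1040.0 CPM in 4CB embryo 2, where the next embryo had 399 CPM. In 8CB embryo 5 it had 8.53 CPM, which is 1 UMI, while the other 8CB embryos had 0, so that any single UMI would have stood apart and this group does not count toward the chance rate. Eomes had 1186 CPM in 2CB embryo 3, against 477 CPM in the next. In 8CB embryo 6 it had 127 CPM from 9 UMIs, against 49.1 CPM. Tfap2c had 394 CPM in 4CB embryo 4, which had 1130360 UMIs, against 196 CPM. Klf5 had 4903 CPM in 1C embryo 4, against 2148 CPM, and 4919.6 CPM in 8CB embryo 6, against 2158 CPM. The 8CB embryo 6 had 70941 UMIs, the fewest of all 24, and the part of depth in these values was not tested.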

How the results depend on the processing

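All 9 factors kept their direction and their call in 2CB/4CB against 1C/8CB embryos under every alternative in which they were tested, including each embryo left out, equal depth and, chosen after seeing the data, the 3 deepest embryos left out. For Cdx2, Elf5, Gata2 and Tfap2a, which passed the filter through 2CB and 4CB embryos, this is no support. Elf5 was not tested with a minimum of 5 UMIs in 12 embryos. In that comparison Tfap2c ranged from -0.93 to -0.64. Without a filter on low counts, 1 factor, Klf6, was called in the difference of 2CB-1C and 4CB-8CB. Changes of sign were among differences that were not called: at equal depth, Tfap2a in 8CB against 1C gave 0.68, Cdx2 in 4CB against 2CB 0.26, and the differences of Eomes and Tfap2a 0.00606 and 0.171. Cdx2 in 4CB against 2CB was 0.0194 with DESeq2, 0.0220 with its size factors and 0.0142 without the 3 deepest embryos, where Klf5 was -0.0532. The difference of Elf5 was -0.41 with DESeq2. With each embryo left out, values in 8CB against 1C ran from 0 to 2.00 for Elf5, -0.31 to 0.54 for Eomes, -0.23 to 0.11 for Tfap2c and -0.44 to 0.29 for Klf5. Those in 4CB against 2CB ran from -0.23 to 0.12 for Cdx2 and -0.149 to 0.0239 for Gata3, and the differences from -0.91 to 1.48 for Elf5 and -0.64 to 0.0850 for Klf5. The cause was not tested.

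Same-numbered embryos did not deviate together (mean r -0.0156 over 36 pairs), and with the replicate block the number of factors called stayed at 9 in 2CB/4CB against 1C/8CB embryos. Over all genes, calls in 8CB against 1C were 0 with edgeR, 43 with DESeq2 and 104 without a filter. In 4CB against 2CB they were 2, 10 and 48, with 1 under the block, and for the difference 0, 34 and 112. In 2CB/4CB against 1C/8CB they were 3284, and 5525 of 23171 genes without a filter. List medians changed sign without a filter for the upstream genes (0.13), the other Krüppel-like factors (0.04) and the epiblast and ICM markers (0.62), with more genes tested. At equal depth, 2 of the 11 tested epiblast and ICM markers were higher and 6 lower. Of the 7 tested other Krüppel-like factors, 2 were higher and 2 lower. The share over all genes at equal depth is not reported here. The difference in the share of Tfap2a between 4CB and 2CB was 18.3 percentage points without 4CB embryo 6 (exact permutation test, p = 0.0346). Depth limits Gata2, Tfap2a and Elf5 in 1C and 8CB embryos, where they had 0 to 7 UMIs a stage.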
